A study of Danio rerio with 2 samples.

Results

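The genes described here encode cullin-RING ubiquitin ligases and the anaphase-promoting complex (APC/C), in zebrafish embryos with and without Dcp2-DN. They were taken by a rule on gene symbols that uses no measured value. Earlier results of these data were known when the rule was chosen. The symbols were those of cullins, of SKP, RBX1 and DDB1, of the FBXW, FBXL and FBXO F-box proteins, of KLHL, KBTBD and KEAP1, of DCAF, and of the APC/C with its activators. This gave 157 of 32571 rows in the authors' deposited table. A row is 1 gene model, so a symbol can stand in more than 1 row. Of the 157 rows, 124 had a test in the authors' deposited table and 33 were listed as not tested.

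Cullin-RING ligases attach ubiquitin to other proteins and so mark many of them for the proteasome. A cullin is the scaffold: one end holds a RING protein, which brings the loaded E2 enzyme, and the other end holds an adaptor with a substrate receptor. CUL1 uses SKP1 and F-box proteins, CUL3 uses BTB-Kelch proteins such as the KLHL family, and CUL4 uses DDB1 and DCAF proteins. The APC/C is a larger relative with a cullin-like and a RING subunit, and it drives exit from mitosis through cyclin destruction. In early vertebrate embryos these enzymes serve the cleavage divisions, and many of their mRNAs are supplied by the egg.

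RNA came from pools of 40 to 50 whole embryos of the AB strain at 6 hpf (hours post fertilization), the onset of gastrulation. One group was mock-injected and the other expressed Dcp2-DN, a form of the mRNA decapping enzyme Dcp2, with which the study meant to inhibit Dcp2 (DN commonly stands for dominant negative). Each group had 1 sample entry, although the design text names 3 replicates, and each row of the table carried a single FPKM value for each of them, so no value below has an SD. FPKM counts sequenced fragments relative to transcript length and to the library's mapped fragments, which allows levels to be compared between genes. A gene is called where the authors' deposited table marks it as significant, meaning a completed Cuffdiff test with a q-value under 0.05. The sources used here do not say how many of the 3 replicates the test drew on, so these p-values may leave out differences between embryo pools, and the spread they do cover may be technical. In whole embryos, fewer cells of a type and less RNA per cell cannot be told apart. Folds are ratios of the FPKM values, and log2 ratios have a pseudocount of 0.1 FPKM, so that changes at low levels come out smaller than they are.

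The labels were checked first. Of the gene models named dcp2, ENSDARG00000039016 was at 13.9 FPKM in mock and 16.7 in Dcp2-DN embryos, and ENSDARG00000089419 was at 0.0398 and 212 FPKM. Neither was called in the authors' deposited table (q = 0.109 and 0.303), and the high value stood in the Dcp2-DN group. The 7 gastrula markers ntla, tbx16, gsc, vox, eve1, sox32 and cdh1 lay between 65.0 and 369 FPKM over both groups. Of these 7, the authors' deposited table called eve1 lower (87.6 to 67.7 FPKM) and gsc higher (65.0 to 79.0 FPKM). Markers of other cells also moved. Of 4 enveloping layer genes, the authors' deposited table called krt4 (917 to 688 FPKM), krt8 (975 to 805) and krt18 (1519 to 1237) lower, and cldne, at 159 and 142 FPKM, was not called. In the yolk syncytial layer pair, mxtx2 rose from 35.8 to 93.6 FPKM and gata6, at 144 and 139.7 FPKM, was not called. The germ cell gene nanos3 rose from 15.5 to 25.2 FPKM. The part of these shifts in the results below was not tested. The 4 rows for blood and muscle genes (hbae1, with 2 rows, myod1 and tnnt2a) did not pass 0.156 FPKM in either group. The log2 ratio (Dcp2-DN over mock) had a median of 0.12 in the 15457 rows averaging 1 FPKM or more, and of -0.21 in 92 cytosolic ribosomal protein rows.

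Among the ligase genes, 31 of the 32 calls were rises. Of the 124 tested rows, 31 (25.0%) were called higher in Dcp2-DN embryos in the authors' deposited table, where 20.6% of all 14810 tested genes were called higher. A single row, not described here, was called lower (0.806%), where the authors' deposited table called 4.35% of all tested genes lower. With no adjustment, p under 0.05 in the authors' deposited table held for 42 of the 124 rows as higher and 3 as lower, beside 27.5% and 8.22% of all tested genes. For the 125 ligase rows averaging 1 FPKM or more this median was 0.15, which is 0.029 above that of all genes. The share of rises and the median were both near those of all genes. The called rises ran from 1.22-fold to 3.12-fold with a median of 1.59-fold, near the median of 1.56-fold over all genes called higher. The authors' deposited table called 5 of the 124 rows higher with at least 2-fold, beside 3.17% of all tested genes.

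**Figure D1:**
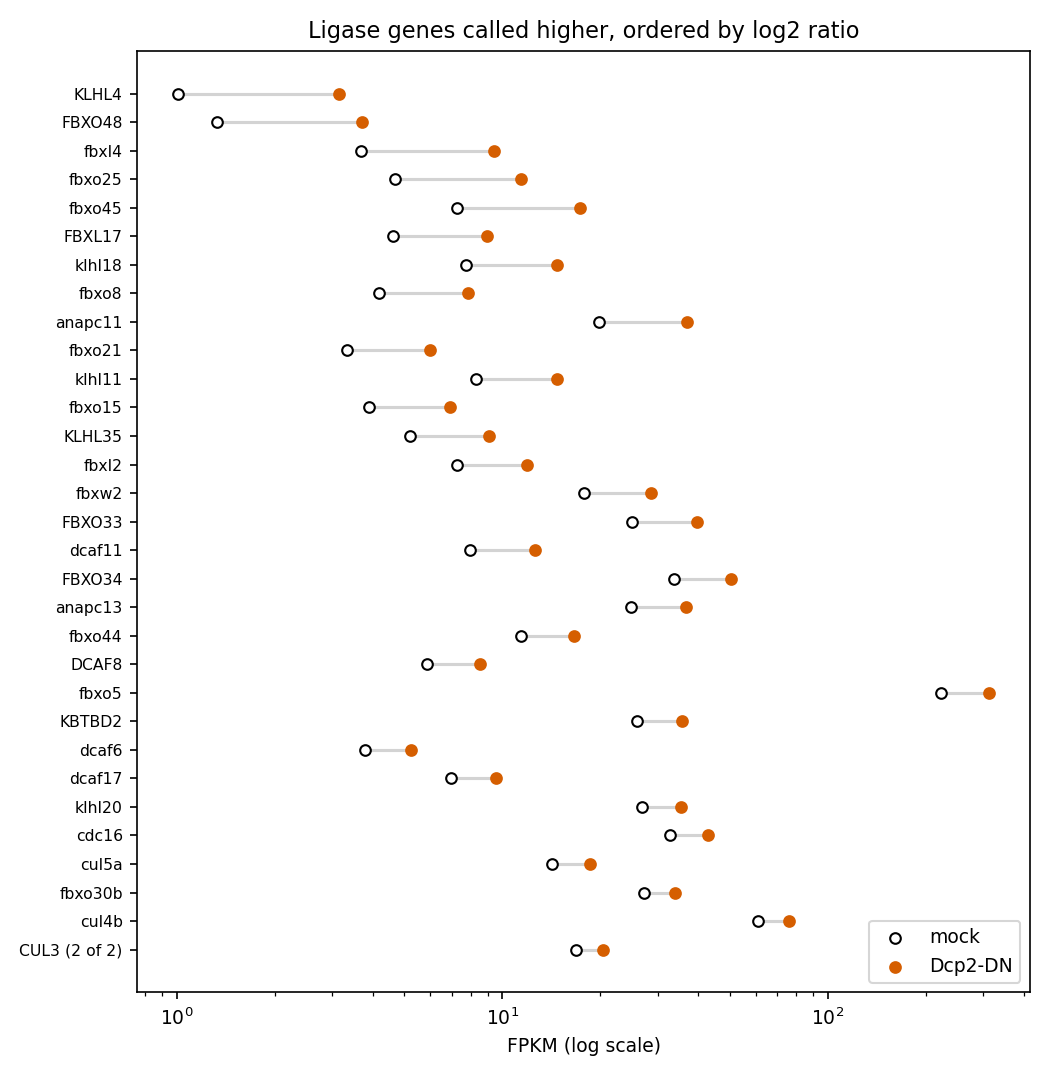
FPKM on a log scale for the 31 ligase genes called higher, with mock as open and Dcp2-DN embryos as filled points, 1 value per group, ordered by log2 ratio. The Dcp2-DN point lies to the right of the mock point in each, from KLHL4 at the top (3.12-fold) to CUL3 (2 of 2) at the bottom (1.22-fold).

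The share of called rises ran from none to 44.4% over the families, beside 20.6% of all tested genes in the authors' deposited table. In that table the called rises were 11 of 31 FBXO rows, 4 of 9 DCAF, 3 of 10 cullin, 6 of 27 KLHL, KBTBD and KEAP1, 3 of 16 APC/C, 3 of 18 FBXL and SKP2, 1 of 9 FBXW and 0 of 4 SKP1, RBX1 and DDB1 rows. Over several families, 25 of 94 substrate receptor rows (26.6%) and 6 of 30 scaffold, adaptor and APC/C rows were called higher in the authors' deposited table, both near the share of all genes. No test of the difference between families was run. Median log2 ratios were 0.21 for FBXO, 0.18 for KLHL, KBTBD and KEAP1, 0.17 for cullins, 0.15 for DCAF, 0.12 for FBXW, 0.074 for APC/C, 0.015 for FBXL and SKP2 and -0.12 for SKP1, RBX1 and DDB1. Relative to the median of all genes the FBXL and APC/C medians turned negative (-0.10 and -0.044), and relative to the ribosomal protein genes that of SKP1, RBX1 and DDB1 turned positive (0.099).

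**Figure D2:**
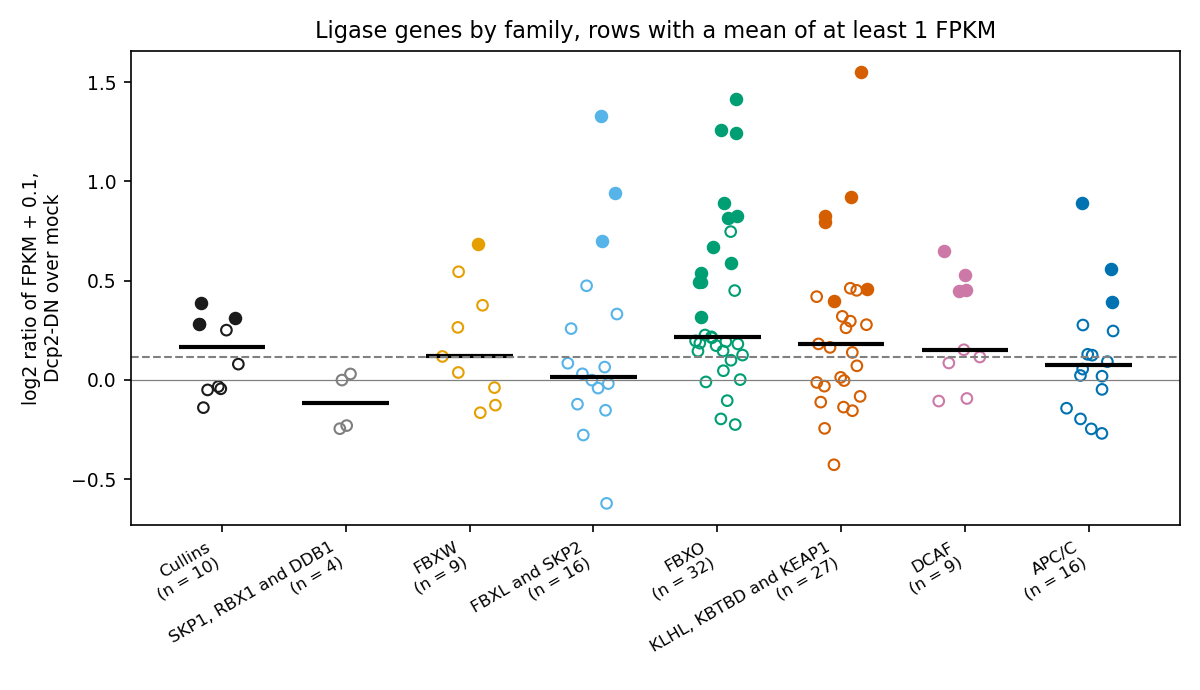
Log2 ratio of FPKM (pseudocount 0.1), Dcp2-DN over mock, for ligase genes averaging 1 FPKM or more, by family. Filled points are called in the authors' deposited table, open points are not, black bars are family medians and the dashed line is the median of all genes (0.12). The filled points are rises, and the single called fall is not plotted.

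The scaffolds were expressed at middling levels, and 3 of them rose by less than 1.5-fold. Cul5a, the scaffold used by SOCS-box receptors (ENSDARG00000069742, chromosome 15, 16163989 to 16188950, on the Zv9 build as are all coordinates here), was at 14.2 FPKM in mock and 18.6 in Dcp2-DN embryos, 1.31-fold higher. Cul4b, a scaffold for DDB1 and DCAF receptors (chromosome 14, 34461164 to 34480123), went from 61.0 to 75.8 FPKM, 1.24-fold higher. The third was a model named CUL3 (2 of 2) (ENSDARG00000090602, chromosome 15, 1762006 to 1782338), from 16.8 to 20.4 FPKM, 1.22-fold higher. The authors' deposited table gave them q = 0.00803, 0.0185 and 0.0428.

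The other 7 tested cullin rows were not called. cul1a, scaffold of the SCF ligases, was at 41.8 and 44.2 FPKM in mock and Dcp2-DN embryos, and its copy cul1b at 19.96 and 23.8. cul2, which carries the VHL receptor, was at 14.7 and 17.9 FPKM, with p = 0.0277 and q = 0.0914 in the authors' deposited table. The more abundant CUL3 gene, cul3a, was at 54.9 and 53.7 FPKM. These 4 rows show both directions, with cul3a the lower one in Dcp2-DN embryos. CUL9, a large cullin known in mammals for binding p53, was at 17.8 and 17.2 FPKM. Each of the 2 cul4a models stood slightly lower, at 17.5 and 17.0 FPKM (ENSDARG00000024452) and at 19.2 and 17.5 FPKM (ENSDARG00000096578), and their loci were shared with 9 and 4 other rows. cul5b was not tested, at 0.223 and 0.485 FPKM.

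The common partners of the scaffolds were abundant and were not called. rbx1, the RING subunit of most cullin ligases, stood at 108 FPKM in both groups, and skp1, the adaptor for F-box proteins, at 141 and 144 FPKM. The adaptor ddb1 had 2 models on chromosome 18, at 36.1 and 30.4 FPKM (ENSDARG00000074431) and at 37.6 and 32.0 FPKM (ENSDARG00000089106). Both ddb1 values were lower in Dcp2-DN embryos, 1.19-fold and 1.17-fold, with q = 0.173 and 0.137 in the authors' deposited table. Models with such similar names and levels may share reads, so the 2 ddb1 rows and the 2 cul4a rows are uncertain as separate measurements.

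FBXO genes held the most called rises by count in the authors' deposited table, 11 of the 31 rows tested (35.5%), below the 44.4% of DCAF by share and beside 20.6% of all tested genes. The largest fold was that of FBXO48 (ENSDARG00000086184, chromosome 1, 52117581 to 52124315), from a low level of 1.32 FPKM to 3.70, 2.79-fold higher. fbxo25 (chromosome 23, 35520327 to 35534694), a nuclear F-box protein, rose from 4.69 to 11.4 FPKM, 2.42-fold. fbxo45 (chromosome 24, 29348424 to 29360358), which in mouse works with the ligase MYCBP2 in neurons, rose from 7.26 to 17.4 FPKM, 2.39-fold. fbxo8, which carries a Sec7 domain of the kind that activates ARF GTPases, rose from 4.17 to 7.82 FPKM, 1.88-fold. In the authors' deposited table q was 0.00831 for FBXO48 and 0.000593, the lowest in that table and shared by 1249 rows, for the other 3.

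fbxo5 (ENSDARG00000039020, chromosome 13, 47400087 to 47413346) encodes Emi1, which inhibits the APC/C and so protects cyclins and geminin during interphase. It was the most abundant F-box gene, at 222 FPKM in mock and 313 in Dcp2-DN embryos, 1.41-fold higher, with q = 0.000593 in the authors' deposited table. Summed over all 39 FBXO rows, the level went from 909 to 1113 FPKM, and without fbxo5 from 686 to 799.9 FPKM. The related fbxo43, whose product Emi2 holds the egg in meiotic arrest, was at 26.8 and 26.9 FPKM and was not called.

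The other 6 called FBXO rows, named after their values were seen, rose between 1.25-fold and 1.80-fold. fbxo21 rose from 3.33 to 5.98 FPKM (1.80-fold) and fbxo15, in mouse a gene marking pluripotent cells, from 3.90 to 6.93 (1.78-fold). FBXO33 rose from 25.0 to 39.7 FPKM (1.59-fold) and FBXO34 from 33.6 to 50.6 (1.503-fold). fbxo44 rose from 11.4 to 16.6 FPKM (1.46-fold) and fbxo30b from 27.2 to 33.9 (1.25-fold). In the authors' deposited table these 6 had q between 0.000593 and 0.0276.

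Of the 20 tested FBXO rows without a call in the authors' deposited table, 16 were higher and 4 lower in Dcp2-DN embryos. With the called rows included, 27 tested FBXO rows were higher and 4 lower. Over all 14810 tested genes, 9259 were higher and 5549 lower, so most genes leaned the same way. fbxo18, a helicase with an F-box, was the most abundant FBXO row without a call, at 91.8 and 91.1 FPKM. fbxo32, known as atrogin-1 for its role in muscle wasting, was already at 84.8 FPKM in mock embryos, before muscle forms, and at 96.4 in Dcp2-DN embryos. Among FBXO rows averaging 5 FPKM or more without a call, FBXO10 (1 of 2) had the largest ratio, from 4.87 to 6.88 FPKM (log2 ratio 0.49, q = 0.125 in the authors' deposited table).

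FBXL genes encode receptors that read substrates through leucine-rich repeats. Counted with SKP2, 3 of 18 tested rows (16.7%) were called higher in the authors' deposited table, beside 20.6% of all tested genes. fbxl4 (ENSDARG00000026941, chromosome 16, 34880687 to 34897268), which encodes a mitochondrial F-box protein, rose from 3.68 to 9.41 FPKM, 2.55-fold. FBXL17, in mammals a quality-control receptor for BTB dimers, rose from 4.61 to 8.95 FPKM, 1.94-fold. fbxl2 rose from 7.28 to 11.9 FPKM, 1.63-fold. All 3 had q = 0.000593 in the authors' deposited table, and the loci of fbxl4 and fbxl2 each held 1 further row, a 5S rRNA listed at 0 in both groups.

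The abundant members of this family were not called. skp2, the receptor for the CDK inhibitor p27 in mammals, was at 204 FPKM in mock and 184 in Dcp2-DN embryos. fbxl14a, whose Xenopus relative targets Snail-family proteins, was at 83.0 and 88.0 FPKM, and fbxl14b at 44.2 and 46.3. fbxl20 had the largest ratio among FBXL rows averaging 5 FPKM or more without a call, at 8.27 and 10.4 FPKM (q = 0.106 in the authors' deposited table). As a whole, the summed level of the 20 FBXL and SKP2 rows was 442 FPKM in both groups. Of this, skp2 held 204 FPKM in mock and 184 in Dcp2-DN embryos, so the remaining rows together stood higher in Dcp2-DN embryos.

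Of the 9 FBXW rows, which read phosphorylated substrates through WD40 repeats, the authors' deposited table called fbxw2 alone. That is 1 of 9 tested rows called higher (11.1%), beside 20.6% of all tested genes in that table. fbxw2 (ENSDARG00000009745, chromosome 5, 34017640 to 34034544) rose from 17.8 to 28.7 FPKM, 1.61-fold, with q = 0.00109 in the authors' deposited table. fbxw11b, a beta-TrCP gene of the kind that targets beta-catenin, was at 64.5 and 77.5 FPKM and lay just outside the threshold (q = 0.0638 in the authors' deposited table). Its copy fbxw11a was at 27.3 and 26.5 FPKM. fbxw7, receptor for cyclin E and Notch, was at 41.8 and 45.4 FPKM without a call.

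Among the BTB-Kelch genes, which join the adaptor and receptor roles in 1 protein for CUL3, 27 rows were tested. Of these 27, 6 (22.2%) were called higher in the authors' deposited table, near the 20.6% of all tested genes. KLHL4 (ENSDARG00000016531, chromosome 14, 27806001 to 27852531) had the largest fold of all the ligase genes called, 3.12-fold, from a low level of 1.01 FPKM to 3.14. klhl18 (chromosome 2, 32461681 to 32474581), which in human cells acts on the kinase Aurora A at mitotic entry, rose from 7.74 to 14.8 FPKM, 1.90-fold. klhl11 rose from 8.30 to 14.8 FPKM (1.78-fold) and KLHL35 from 5.20 to 9.10 (1.75-fold). The mock levels of these 4 genes were low, between 1.01 and 8.30 FPKM.

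KBTBD2, in mouse a receptor for the PI3-kinase subunit p85alpha, rose from 25.9 to 35.6 FPKM (1.37-fold) and was named after its value was seen. klhl20 rose from 26.8 to 35.3 FPKM (1.32-fold). The q-values of these 6 BTB-Kelch rows in the authors' deposited table ran from 0.000593 to 0.00606. kbtbd8, which works with CUL3 in neural crest specification, was the most abundant of the family and was not called, at 83.8 and 79.1 FPKM. KLHL28 had the largest downward ratio of the family among rows averaging 5 FPKM or more, from 6.27 to 4.64 FPKM (log2 ratio -0.43), with q = 0.172 in the authors' deposited table. The KEAP1 genes, whose products hold back the stress factor NRF2, were at 3.52 and 4.29 FPKM (keap1a) and at 6.88 and 6.17 FPKM (keap1b), in opposite directions and without a call.

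Of the 49 BTB-Kelch rows, 22 were not tested, and the highest value among them was 1.08 FPKM, that of KBTBD11 in Dcp2-DN embryos. They include the muscle genes klhl40a, klhl40b, klhl41a, klhl41b and klhl31, of which klhl41a was the highest at 0.273 and 0.270 FPKM. Over all families, the 33 rows that were not tested did not pass 0.982 FPKM in mock or 1.29 in Dcp2-DN embryos, and KLHL34 was listed at 0 in both. For these rows a change was not detectable here.

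DCAF genes encode the receptors of CUL4. Of 9 tested rows, 4 (44.4%) were called higher in the authors' deposited table, beside 20.6% of all tested genes. dcaf11 rose from 7.96 to 12.6 FPKM (1.58-fold), DCAF8 from 5.86 to 8.51 (1.45-fold), dcaf6 from 3.79 to 5.23 (1.38-fold) and dcaf17 from 6.96 to 9.53 (1.37-fold). The authors' deposited table gave them q = 0.00606, 0.00636, 0.0232 and 0.0481. Only DCAF8 of these had its locus to itself. The locus of dcaf11 also held tceb1a, which itself rose 2.58-fold, that of dcaf17 held mettl8 and cybrd1, both higher in Dcp2-DN embryos without a call, and that of dcaf6 held a row listed at 0. The part of shared reads in the DCAF calls was not tested. The abundant receptors dcaf13, which also serves ribosome biogenesis, and dcaf7 were at 94.4 and 88.5 FPKM and at 75.5 and 80.1 FPKM, and dcaf12 at 31.8 and 35.3, none of them called.

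**Figure D3:**
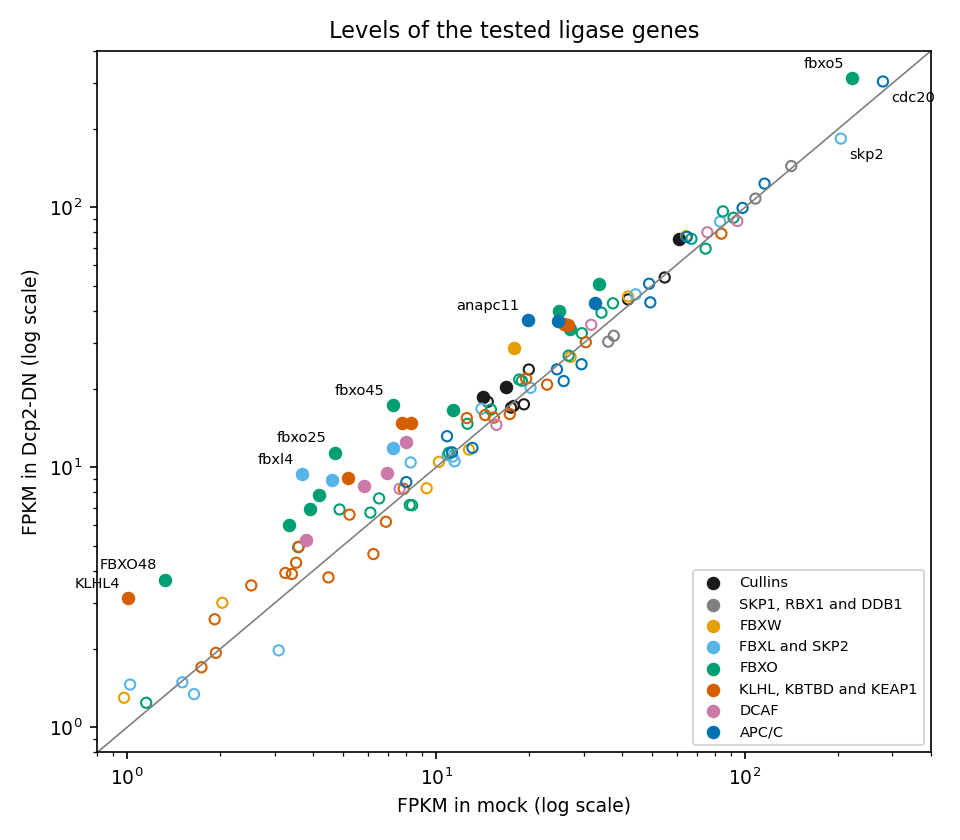
FPKM in Dcp2-DN against mock embryos for the tested ligase genes, both axes on a log scale, coloured by family, with filled points called in the authors' deposited table and the single called fall not plotted. The line marks equal levels. Filled points stand above the line mainly under 50 FPKM, while cdc20 (279 and 305 FPKM) and skp2 (204 and 184 FPKM) lie close to it.

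Of the 16 APC/C rows, 3 were called higher in the authors' deposited table (18.75%), near the 20.6% of all tested genes. anapc11 (ENSDARG00000070333, chromosome 6, 19659534 to 19665320), the RING subunit, rose from 19.8 to 36.8 FPKM, 1.86-fold. anapc13, a small subunit that stabilises the tetratricopeptide arm, rose from 24.8 to 36.6 FPKM, 1.48-fold. cdc16, one of the tetratricopeptide subunits that build this arm, rose from 32.6 to 42.9 FPKM, 1.31-fold. In the authors' deposited table their q-values were 0.000593, 0.0255 and 0.0199.

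None of the remaining subunits was called, and their values lay in both directions. anapc2, the cullin-like partner of anapc11 in the catalytic core, was at 11.2 and 11.4 FPKM. anapc10, a subunit that helps bind substrates, was at 48.9 and 50.8 FPKM. The other arm subunits cdc23 (24.6 and 23.8 FPKM), cdc27 (116 and 123) and cdc26 (64.8 and 76.9) were not called. anapc7, also of the arm, was lower in Dcp2-DN embryos, at 29.6 and 24.9 FPKM, with p = 0.0340 and q = 0.106 in the authors' deposited table. The platform subunits anapc1 (25.9 and 21.5 FPKM), anapc4 (8.01 and 8.77) and anapc5 (13.1 and 11.9) were not called. anapc15, needed for release from the spindle checkpoint, stood at 10.9 and 13.2 FPKM and the small subunit anapc16 at 49.4 and 43.1.

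The APC/C activators were abundant and without a call. cdc20, which activates the complex in mitosis, had the highest mock level of all 157 rows, 279 FPKM, and stood at 305 FPKM in Dcp2-DN embryos, below fbxo5 (313). fzr1, the activator of late mitosis and G1 known as Cdh1, was at 98.1 and 99.4 FPKM. The called rise of the inhibitor fbxo5 thus stood beside activators for which the authors' deposited table gave q = 0.496 and 0.951. The difference between these genes was not tested.

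Called rises were most frequent at middle levels, at 5 to 10 FPKM for the ligase genes and at 10 to 20 FPKM for all genes, by the mean of both groups. Of the 23 rows with a mean of 5 to 10 FPKM, 9 (39.1%) were called higher in the authors' deposited table, beside 25.8% of all tested genes at that level. At 10 to 20 FPKM the counts were 7 of 28 (25.0%) beside 29.3%, and at 20 to 50 FPKM 9 of 32 (28.1%) beside 23.8%. Among 19 rows at 50 FPKM or above, cul4b and fbxo5 were called higher in the authors' deposited table (10.5%), beside 12.3% of all tested genes. Rows with a mean under 2 FPKM, 7 in number, had no call in the authors' deposited table, beside 10.4% called higher over all genes.

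**Figure D4:**
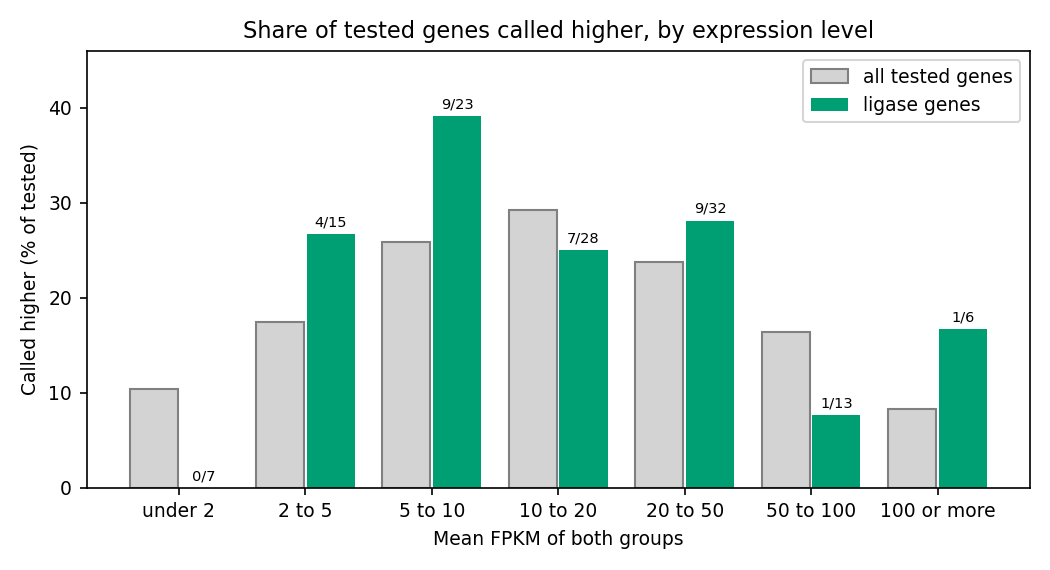
Percent of tested genes called higher in the authors' deposited table, by mean FPKM of both groups, for all tested genes (grey) and the ligase genes (green, with counts above the bars). Ligase genes stand above all genes at 2 to 10 and 20 to 50 FPKM and at 100 FPKM or more, where the bar is 1 of 6 rows, and below them in the other bins.

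Many members have a copy, and the zebrafish lineage went through a genome duplication. Among the 157 rows, 49 fell into 23 groups of copies, taken as rows with the same symbol or symbols that differ by a final a or b. This rule also joins cul4a and cul4b, which are separate genes in other vertebrates and not copies from that duplication. At least 2 copies were tested in 14 groups. In 9 of these 14 groups none was called in the authors' deposited table, in 5 a single tested copy was, and in 0 more than 1. For comparison, 20.6% of all tested genes had a called rise there and 4.35% a called fall. With most genes uncalled, the count of 0 does not by itself show that copies differed. The called copies include CUL3 (2 of 2), cul4b, fbxo15 and fbxo30b. In the cul3, cul4 and fbxo15 groups the called row was higher in Dcp2-DN embryos and the other tested rows were lower without a call. fbxo15 was at 3.90 FPKM in mock and 6.93 in Dcp2-DN embryos, and FBXO15 (2 of 2) at 8.36 and 7.14. For FBXO15 (2 of 2) q was 0.648 in the authors' deposited table, and its locus was shared with 2 other rows. A table of gene names lists it as zgc:161973, outside the symbol rule, so it is uncertain as a copy. In the fbxo30 group both stood higher, fbxo30b at 27.2 and 33.9 FPKM and fbxo30a at 11.0 and 11.4. Whether copies differed in their response could not be tested, since the table gives no error per gene.

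The members lay on all 25 chromosomes and on scaffolds, the latter with 5 rows. In 9 cases 2 members were neighbours within 100 kb of each other. In 2 of these pairs 1 partner was called in the authors' deposited table, and in 0 were both. Over all tested genes that table called 20.6% higher and 4.35% lower. Several pairs, such as FBXO40 (1 of 2) with FBXO40 (2 of 2), held rows without a test and could not have both called. Whether neighbours were called together was not tested. fbxo5 lay 52.0 kb from anapc1 on chromosome 13, with the first called higher and the second at 25.9 and 21.5 FPKM without a call. fbxo21 lay 27.9 kb from fbxw8 on chromosome 5, and fbxw8 was at 12.8 and 11.7 FPKM without a call. fbxo32 lay 8.9 kb from KLHL38 (2 of 2), which was not tested at 0.232 and 0.256 FPKM beside the 84.8 and 96.4 FPKM of fbxo32.

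Genes that work with these ligases but lie outside the symbol rule were taken from 5 lists. Cullins become active when the ubiquitin-like protein NEDD8 is attached to them. For this step and for receptor exchange 12 genes were tested, of which the authors' deposited table called 6 as higher and 0 as lower, beside 20.6% and 4.35% of all tested genes. At p under 0.05 without adjustment, these counts in the authors' deposited table were 7 and 0. Their median log2 ratio was 0.42, beside 0.12 for all genes. The largest called fold was that of rnf7, known as RBX2, the RING partner of CUL5, from 13.0 to 27.1 FPKM (2.08-fold). uba3 and nae1, the subunits of the NEDD8-activating enzyme, rose from 22.6 to 35.7 FPKM (1.58-fold) and from 9.53 to 12.6 (1.32-fold). ube2f, a NEDD8-conjugating enzyme that serves CUL5, rose from 15.3 to 22.1 FPKM (1.44-fold). The DCN1-like NEDD8 ligase genes dcun1d1 and DCUN1D3 rose 1.81-fold and 1.47-fold. Of the same kind, dcun1d2 (6.77 and 6.73 FPKM), dcun1d4 (3.74 and 5.14) and dcun1d5 (108 and 127) were not called. nedd8 itself (72.5 and 82.4 FPKM) and cand1, the exchange factor (49.1 and 56.3), were not called.

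The COP9 signalosome removes NEDD8 again. Of its 8 tested genes, the authors' deposited table called 1 higher (12.5%, beside 20.6% of all tested genes) and 0 lower. This was the catalytic subunit cops5, from 13.1 to 17.2 FPKM (1.31-fold). With p under 0.05, unadjusted, that table had 4 of the 8 higher and 0 lower, beside 27.5% and 8.22% of all tested genes. The median log2 ratio of the 8 was 0.19, beside 0.12 for all genes. In the list of elongins, VHL, SPOP and other receptors, the authors' deposited table marked 8 of 27 tested genes as higher (29.6%, beside 20.6% of all tested genes) and 0 as lower. They include tceb1a, an elongin C gene that links receptors to CUL2 and CUL5 (12.2 to 31.4 FPKM, 2.58-fold), vhl, the receptor for hypoxia-inducible factor (9.45 to 18.4 FPKM, 1.94-fold), and ddb2, a damage-recognition receptor of CUL4 (11.0 to 17.0 FPKM, 1.54-fold). As said above, tceb1a shares its locus with dcaf11, so the rises of tceb1a and dcaf11 are uncertain as separate results. The copy of tceb1a, tceb1b, at 50.8 and 49.9 FPKM, was not called.

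Of 14 tested APC/C E2 enzyme and spindle checkpoint genes, 1 had a called rise (7.14%, beside 20.6% of all tested genes) and 0 a called fall in the authors' deposited table. UBE2S, which extends ubiquitin chains for the APC/C, rose from 81.9 to 106 FPKM (1.29-fold), while ube2c, which starts them, was at 214 and 179 FPKM without a call (q = 0.0578 in the authors' deposited table). Known substrates had 25 tested genes, 9 of them with a called rise (36.0%) and 1 with a called fall (4.0%) in the authors' deposited table, beside 20.6% and 4.35% of all tested genes. gmnn, which encodes geminin, rose from 254 to 417 FPKM (1.64-fold), ccna1 from 278 to 441 (1.58-fold), ccnb2 from 214 to 268 (1.26-fold) and nek2 from 65.2 to 84.4 (1.29-fold), while ctnnb1, the gene for beta-catenin, fell from 436 to 341 FPKM (1.28-fold lower). The other called rises of the list were ccnb1 (1219 to 1550 FPKM, 1.27-fold), mos (1.80-fold), CCNB1 (2 of 2) (1.79-fold), wee2 (1.65-fold) and wee1 (1.21-fold). The locus of gmnn held 3 rows and that of wee1 2, and the part of shared reads in their calls was not tested. Others, such as plk1 at 669 and 635 FPKM and aurka at 169 and 185, were not called. Cyclin genes without a call include ccna2 at 783 and 766 FPKM, ccnb3 at 151 and 140 and ccne1 at 449 and 510. Of the 25 tested substrate genes, 15 stood higher and 10 lower in Dcp2-DN embryos, called or not.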

How the data were processed

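RNA of 2 groups, mock and Dcp2-DN, was measured with 1 sample entry each. Per the labels' protocols, libraries were stranded and made after removal of ribosomal RNA. The submitters' processing notes name the builds Zv9 and danRer7 along with Cuffdiff 2.1.1 and TopHat 1.4.0. No source used here gives the annotation, the scaling or the use of strand. Each deposited row has an FPKM value for either group, with the p-value and q-value of Cuffdiff, and the deposited call equalled a completed test with q under 0.05 in all 32571 rows. Depth is unknown.

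Computed here were folds, log2 ratios with a pseudocount of 0.1 FPKM, medians (over rows averaging 1 FPKM or more), and counts of the deposited calls, with Python 3.11.15, NumPy 2.4.6, pandas 2.3.3 and matplotlib 3.10.9. Counting and medians were tested on simulated data. Damaged fold change cells were not used. Coordinates are locus spans, of which the first base may be numbered 0 or 1. Of the 157 members, 28 share a locus with another row. By gene ID, 130 were in a table of gene names, which names 6 of them outside the rule (fbxl22 as USP3 and fbxo10 as ECPAS among them) and names 17 further rows inside it.

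Members and lists were chosen with earlier results of these data known. Named were tested cullin, core and APC/C rows. In each other family these were the 4 largest called rises and 3 largest called falls with at least 1 FPKM in the higher group, the 2 most abundant members, the uncalled row with the largest ratio at a mean of at least 5 FPKM, and copies of these genes. Further names were chosen after their values were seen. A few rows enter the counts and medians but are not reported singly or plotted here. Alternatives were other thresholds, pseudocounts, centrings and member rules.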

Additional observations from a re-analysis of the deposited data

How the results depend on the processing

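No paired analysis was possible because the table held 1 value per group, and no replicate could be left out. A median is given below where it moved by 0.1 or more on the log2 scale, and a count where it moved by over 1.5 times. Of the 31 rises called in the authors' deposited table over all members, 18 had at least 1.5-fold and 18 a mean of at least 10 FPKM. Over all genes, 1761 of the 3051 rises called in that table had a fold of at least 1.5. Of the same 3051, 772 had a mean of 10 to 20 FPKM, 715 of 20 to 50, 214 of 50 to 100 and 108 of 100 or more. The smaller family counts below are therefore not read as a trait of a family. The single called fall gave a count of 0 at q under 0.01, at a mean of at least 10 FPKM and without members that share a locus. At q under 0.01 the called rises were 1 for cullins, 2 for DCAF and 1 for APC/C, and with at least 1.5-fold they were 0, 1 and 1. At a mean of at least 10 FPKM they were 0 for FBXL, 6 for FBXO and 1 for DCAF. Without shared loci they were 1 for FBXL and 1 for DCAF, without names in capitals or with a copy number 3 for the BTB-Kelch genes, and with the rows added from the name table, a choice made after seeing the data, 2 for FBXW. Fewer rows enter each of these counts by construction, apart from the last. No count over all genes is given for q under 0.01, for shared loci or for names in capitals. Those counts are therefore not read as a result about the ligase genes.

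Relative to the median of all genes (0.12), medians were 0.029 over all members, 0.048 for cullins, -0.23 for SKP1, RBX1 and DDB1, 0.0012 for FBXW, -0.10 for FBXL, 0.098 for FBXO, 0.064 for BTB-Kelch genes, 0.035 for DCAF and -0.044 for APC/C. Relative to the ribosomal protein genes (-0.21) they were, in that order, 0.36, 0.38, 0.099, 0.33, 0.23, 0.43, 0.40, 0.37 and 0.29. The cullin median was 0.27 without shared loci, and the BTB-Kelch median 0.071 with no filter on low values. The other alternatives moved no median that far. A pseudocount of 1 FPKM, added to both values, cannot change the direction of any gene. It did shrink ratios at low levels, with log2 ratios going from 1.41 to 1.01 for FBXO48 and from 1.55 to 1.04 for KLHL4. Centring on all genes (0.12) could not reverse a called rise either, since the smallest was 1.22-fold (log2 ratio 0.28). These 2 alternatives therefore say nothing on the direction of the called rises.

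For the pathway lists, alternatives added after seeing the data gave, with at least 1.5-fold, called rises of 3 for NEDD8 genes, 0 for COP9, 5 for the elongin and VHL list, 0 for APC/C regulators and 5 for substrates. Over all genes, 1761 of the 3051 rises called in the authors' deposited table had a fold of at least 1.5. At q under 0.01 COP9 had 0 called rises. The fall of ctnnb1 gave 0 under both.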

Other observations

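Of 17 rows that the gene name table places in these families but whose deposited symbol does not, 11 had a test. Of these 11, 2 were called as rises and 0 as falls in the authors' deposited table, beside 20.6% and 4.35% of all tested genes. The row deposited as CDRT1, named fbxw10 in that table, was at 3.24 FPKM in mock and 6.82 in Dcp2-DN embryos, 2.11-fold higher (q = 0.000593 in the authors' deposited table). The row si:rp71-1k13.8, named fbxo6.3 there, was at 1.01 and 2.32 FPKM, 2.30-fold higher (q = 0.00606 in the authors' deposited table). The row wdr32, named DCAF10, was at 41.6 and 40.4 FPKM without a call.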
